A study of Homo sapiens with 12 samples.

Results

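The response of VCaP cells to dihydrotestosterone (DHT) was measured by setting 3 arrays of DHT-treated cultures against 3 arrays of cultures given the solvent alone. VCaP is a prostate cancer cell line in which the androgen-driven promoter of TMPRSS2 is fused to ERG, and DHT is the main androgen inside prostate cells. The DHT group received 0.1 nM DHT, and the vehicle group received DMSO. The other 6 of the 12 arrays held cells given 10 µM enzalutamide, an androgen receptor antagonist, together with 100 nM dexamethasone, a synthetic glucocorticoid, and cells given 10 µM enzalutamide alone. All 12 cultures were biological replicates, 3 per treatment, kept in complete medium and collected after 24 h. Such medium holds serum with its own hormones, so the vehicle cultures were not free of androgen, and a single line stands for the tumor type.

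A probe was kept where 3 or more of the 12 arrays detected it (detection p under 0.05), and each gene was represented by its brightest kept probe, which left 11414 genes. Levels below are normalized log2 intensities, and changes are the DHT level minus the vehicle level ± the standard error (SE) of a linear model (limma) with n = 3 arrays per group. A gene is called raised or lowered where its p-value, adjusted over all 11414 genes, was under 0.05. An asterisk after a value marks a call that was lost when the arrays were scaled to a common median, and a dagger (†) one that was lost when at least 1 of the 6 arrays was left out. By that threshold 2476 genes changed (21.7%), 1259 raised (11%) and 1217 lowered (10.7%). The groups did not overlap in 4244 genes (37.2%), and 3840 genes had an unadjusted p under 0.05. The groups were apart in 99.1% of raised and 99.2% of lowered genes, so absence of overlap adds little to a call. Most changes were small: 454 raised and 436 lowered genes changed by at least 1.5-fold, 108 and 89 by at least 2-fold, and 7 and 6 by at least 4-fold.

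The androgen receptor is a transcription factor that moves to DNA once it has bound its hormone, and in luminal prostate cells it drives genes of secretion, lipid supply and differentiation. The prostate is a secretory gland, so much of what its luminal cells make passes through the endoplasmic reticulum (ER) and the Golgi. Androgen can either drive or slow the division of prostate cancer cells, depending on the dose and the line. The gene groups below were read with these roles in mind. Each count is to be read beside the shares of all genes, 11% raised and 10.7% lowered.

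Mean intensity of the unprocessed arrays was 295 to 332 in the DHT group and 199 to 341 in the vehicle group, where vehicle replicate 3 was the dimmest. Normalized levels correlated at 0.977 to 0.984 between DHT and vehicle arrays and at 0.986 to 0.993 within groups. Quantile normalization, used here, gives every array the same distribution. With arrays scaled only to a common median, the median change of all genes was 0.155 in place of 0.01, and 950 genes were raised and 219 lowered. With that scaling and vehicle replicate 3 left out (reduced median scaling below), 557 were raised and 621 lowered. Counts of 2 or more genes that moved by over 1.5 times with either scaling, with the replicate number as a block or with 1 array left out are therefore given beside the results. A list's median is read as its distance from the median of all genes. Of 18 luminal prostate markers 14 were tested, and these 14 were detected on every array, with a summed linear level of 40644 to 42279 in DHT cells and 29663 to 32215 in vehicle cells. Basal markers were at the floor: 2 of 10 were tested, neither was detected on all arrays of a group, and their sum was 51.0 to 60.1 in DHT cells and 45.2 to 58.2 in vehicle cells. The sums of the 2 tested stromal markers (186 to 189 in DHT cells, 132 to 160 in vehicle cells), the 3 endothelial ones (240 to 247, against 201 to 207), the 5 immune and blood ones (376 to 402, against 435 to 504) and the 7 neuroendocrine ones (617 to 644, against 658 to 712) were all far below the luminal sum. Their part in the results below was not tested.

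Among 131 lists of genes grouped by pathway, complex or family, 117 had at least 10 tested genes. The share of called genes lay within 5 percentage points of that of all genes in 30 of the 117, more than 5 points above it in 61 and more than 5 points below it in 26. In 20 of the 117 no member was raised, and in 15 no member was lowered. Called shares near the 21.7% of all genes included kinetochore (21.88%), mismatch and base excision repair (21.05%), kinesin (20%) and P-type ATPase genes (19.05%). The shares of ZNF genes (13.74%) and of TRAPP and SNARE factors (9.76%) lay below it. Lists share members, and they were written with earlier results of these arrays known. The plot of called shares sets 28 of them side by side: DNA replication, ribosome assembly and nucleotide synthesis lie on the lowered side, the early secretory pathway on the raised side, and respiratory chain subunits hold almost no called gene.

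**Figure D1:**
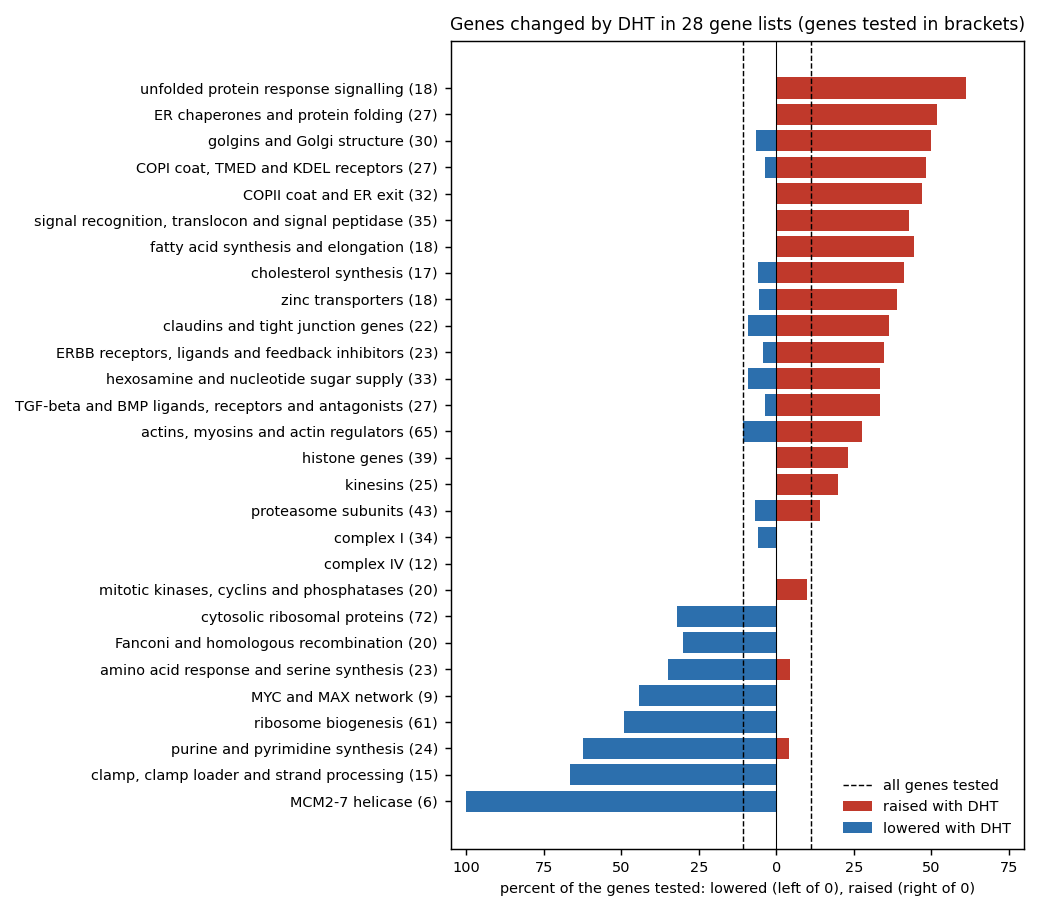
Percent of the tested genes of each of 28 lists that were raised (red, right of 0) or lowered (blue, left of 0) in DHT-treated against vehicle-treated cells, with the number of tested genes in brackets and dashed lines at the shares of all 11414 genes (11% raised, 10.7% lowered). All 6 helicase genes were lowered, 11 of 18 genes of unfolded protein response signalling were raised, and 0 of 12 complex IV genes were called.

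Genes of DNA replication were lowered across the machinery. Of 70 tested replication genes 32 were lowered (45.7%) and 0 raised, with a median change of -0.27. With median scaling 11 of the 70 were lowered, and 22 with reduced median scaling. The helicase that unwinds DNA ahead of the fork is a ring of the proteins encoded by MCM2 to MCM7, and all 6 genes were lowered. MCM2 lay at 6.50, 6.32 and 6.26 with DHT, against 7.90, 7.77 and 7.86 with vehicle. The groups did not overlap, and the change was -1.48 ± 0.09 (2.8-fold lower, adjusted p = 9.74e-07). MCM4 lay at 7.35, 7.38 and 7.26 with DHT, against 8.78, 8.65 and 8.61 with vehicle, and MCM5 at 6.34, 6.22 and 6.18 with DHT, against 7.10, 7.34 and 7.54 with vehicle. Here too every DHT array was below every vehicle array, with changes of -1.35 ± 0.09 (adjusted p = 1.07e-06) and -1.08 ± 0.12 (adjusted p = 6.4e-05). MCM6 (-1.03 ± 0.08), MCM7 (-0.75 ± 0.09*) and MCM3 (-0.55 ± 0.07*) were lowered by less. With median scaling 4 of the 6 helicase genes were lowered, and all 6 with reduced median scaling. RNA was taken from whole cultures, in which fewer cells copying their DNA and less of each transcript per cell cannot be told apart.

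The promoters of the helicase genes are shown because genes of S phase are classic targets of the E2F factors, whose site was searched here as TTTCCCGC, TTTCGCGC, TTTGCCGC or TTTGGCGC on both strands. RefSeq sequences (GRCh38.p14) from 250 bases before to 30 bases after the gene start were used for printing, and 250 before to 50 after for counting. A site was found in all 4 helicase promoters that were matched, and those of MCM4 and MCM5 were not analysed here. They lie at chr3:127598161-127598440 (MCM2, plus strand), chr6:52284713-52284992 (MCM3, minus strand), chr2:135876414-135876693 (MCM6, minus strand) and chr7:100101368-100101647 (MCM7, minus strand). Capitals mark the sites as they read on the gene's strand, and overlapping sites run together.
MCM2: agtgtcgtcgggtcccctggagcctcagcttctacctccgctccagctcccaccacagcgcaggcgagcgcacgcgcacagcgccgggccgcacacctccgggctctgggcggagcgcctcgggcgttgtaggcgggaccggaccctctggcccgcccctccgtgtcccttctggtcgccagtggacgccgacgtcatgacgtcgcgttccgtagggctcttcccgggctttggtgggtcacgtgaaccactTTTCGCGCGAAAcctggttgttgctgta
MCM3: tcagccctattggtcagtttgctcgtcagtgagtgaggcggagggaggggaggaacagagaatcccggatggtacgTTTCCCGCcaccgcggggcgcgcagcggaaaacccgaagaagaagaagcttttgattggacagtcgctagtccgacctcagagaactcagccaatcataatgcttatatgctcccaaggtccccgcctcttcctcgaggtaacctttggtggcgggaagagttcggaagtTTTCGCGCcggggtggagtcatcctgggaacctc
MCM6: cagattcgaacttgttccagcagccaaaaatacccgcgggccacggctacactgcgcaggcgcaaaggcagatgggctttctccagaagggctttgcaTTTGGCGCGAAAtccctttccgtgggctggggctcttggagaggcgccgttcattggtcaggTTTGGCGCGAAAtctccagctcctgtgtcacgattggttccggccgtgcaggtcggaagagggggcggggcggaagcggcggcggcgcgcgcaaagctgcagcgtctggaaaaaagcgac
MCM7: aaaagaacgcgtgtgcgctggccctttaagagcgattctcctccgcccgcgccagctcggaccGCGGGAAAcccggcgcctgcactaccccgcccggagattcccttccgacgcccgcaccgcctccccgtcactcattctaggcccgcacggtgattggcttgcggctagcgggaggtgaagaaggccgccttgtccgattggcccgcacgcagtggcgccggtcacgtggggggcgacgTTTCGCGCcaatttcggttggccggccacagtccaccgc

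Of all 27305 RefSeq promoters 3.33% held such a site, and of the 9207 promoters of tested genes 5.3% did. Among replication genes the site was in 12 of 28 promoters of lowered genes (42.9%) and in 10 of 32 promoters of genes that were not called (31.2%). It was in 3.83% of the promoters of all raised genes, 6.33% of those of all lowered genes and 5.38% of those of genes not called. A match to these letters is a description of the sequence and does not show that a factor binds there.

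Other steps of replication were lowered too. CDC45 and the GINS complex join the helicase to make it active, and 2 of their 3 tested genes were lowered, GINS2 (-0.87 ± 0.14) and CDC45 (-0.68 ± 0.08*). CDC45 lay at 8.16, 8.26 and 8.17 with DHT, against 8.86, 8.87 and 8.90 with vehicle, so that the groups were well apart, while the third gene, GINS3, changed by -0.37 ± 0.13 (adjusted p = 0.0535) and was not called, although it was with the replicate number as a block (adjusted p = 0.032). Of 16 genes that license and fire origins 4 were lowered: MCM10 (-1.06 ± 0.12), CDT1 (-0.90 ± 0.13), which loads the helicase, ORC3 (-0.38 ± 0.10*†) and GMNN (-0.37 ± 0.09*†). Of 15 genes of the sliding clamp, its loaders and strand processing 10 were lowered, led by DSCC1 (-0.99 ± 0.11), RFC5 (-0.70 ± 0.09*, probes of opposite sign), PCNA (-0.63 ± 0.09*), which encodes the clamp, and the flap nuclease gene FEN1 (-0.63 ± 0.09*). PRIM1 (-0.51 ± 0.11*), POLD2 (-0.46 ± 0.10*) and POLA2 (-0.43 ± 0.11*†) were the lowered genes among 11 of the replicative polymerases. Thymidylate synthase TYMS (-0.45 ± 0.12*†), thymidine kinase TK1 (-0.42 ± 0.10*†) and DUT (-0.41 ± 0.10*†) were those among 9 of deoxynucleotide synthesis. Factors that rebuild chromatin behind the fork were lowered in 4 of 10, with UHRF1 (-0.96 ± 0.10), NASP (-0.79 ± 0.12), CHAF1B (-0.74 ± 0.11*) and CHAF1A, which was detected on no DHT array and was at least 1.76-fold lower. Counts that moved by over 1.5 times were those of lowered GINS genes (1 with median scaling), lowered origin genes (2 with either scaling or without DHT replicate 3), lowered polymerase genes (0 with median scaling, 1 with reduced median scaling), lowered clamp and loader genes (1 with median scaling) and lowered deoxynucleotide genes (0 with either scaling, 1 without DHT replicate 3).

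DNA repair genes that work beside the fork also had called members in 1 direction only. Of 20 Fanconi and homologous recombination genes 6 were lowered and 0 raised: FANCE (-1.19 ± 0.10), BARD1 (-0.82 ± 0.12), the exonuclease gene EXO1 (-0.70 ± 0.18†, detected on 1 of 3 DHT arrays) and RAD54L (-0.47 ± 0.14*†) changed most. Of 19 mismatch and base excision repair genes 4 were lowered and 0 raised. These were the uracil glycosylase gene UNG (-0.99 ± 0.10), NEIL2 (-0.91 ± 0.16, detected on 2 of 3 DHT arrays), the abasic site nuclease gene APEX1 (-0.50 ± 0.09*) and NTHL1 (-0.48 ± 0.14*†). FANCE lay at 5.81, 5.87 and 6.11 with DHT, against 7.13, 7.0 and 7.22 with vehicle, and UNG at 8.71, 8.48 and 8.54 with DHT, against 9.72, 9.49 and 9.48 with vehicle. Both had groups that did not overlap. Processing moved by over 1.5 times the counts of lowered Fanconi and recombination genes (3 with either scaling or without DHT replicate 3 or vehicle replicate 3) and lowered mismatch and base excision genes (2 with median scaling).

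Genes that act at the entry to S phase were called in both directions. Of 25 tested, 5 were lowered and 3 raised. The phosphatase gene CDC25A (-0.98 ± 0.12, probes of opposite sign), SKP2 (-0.84 ± 0.09), which marks CDK inhibitors for degradation, E2F2 (-0.76 ± 0.09*), the kinase gene CDK4 (-0.63 ± 0.11*) and E2F3 (-0.35 ± 0.09*†) were lowered. CDKN1A, which encodes the CDK inhibitor p21, lay at 10.93, 10.84 and 10.999 with DHT, against 10.14, 9.85 and 10.04 with vehicle, with groups well apart, and was raised by 0.91 ± 0.10 (adjusted p = 8.82e-05). CDKN2D (0.39 ± 0.10*†) and CCND1 (0.39 ± 0.08*) were raised too. The counts that changed by over 1.5 times were for raised S phase entry genes (1 with either scaling) and lowered S phase entry genes (2 with median scaling).

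Genes of mitosis and of the kinesin family were called in both directions. Of 113 tested, 11 were raised and 8 lowered, shares of 9.73% and 7.08% beside 11% and 10.7% of all genes. The kinesins were counted as a family, whether or not a motor acts in mitosis. With median scaling 9 were raised and 0 lowered, and 4 and 2 with reduced median scaling. With 1 array left out 5 to 10 were raised and 4 to 6 lowered. Of 20 mitotic kinases, cyclins and phosphatases 2 were raised and 0 lowered. CCNA2, a cyclin of S phase and mitosis, lay at 8.39, 8.53 and 8.16 with DHT, against 8.04, 8.16 and 7.80 with vehicle, and CDK1 at 9.30, 9.38 and 9.32 with DHT, against 8.91, 9.12 and 9.12 with vehicle. In CCNA2 the lowest DHT array stood only just above the highest vehicle array, and in CDK1 these lay at 9.30 and 9.12. Their changes were 0.36 ± 0.12† (adjusted p = 0.0456) and 0.28 ± 0.09*† (adjusted p = 0.047), and neither call held without vehicle replicate 3. Of 25 kinesin genes 5 were raised and 0 lowered, among them KIF22 (0.64 ± 0.13), a motor on chromosome arms, KIF24 (at least 1.09-fold higher*†), KIF5B (0.40 ± 0.10†), KIF13B (0.39 ± 0.08) and KIF20A (0.34 ± 0.10*†), which acts in cytokinesis. Kinetochore and checkpoint genes, 32 in all, held 2 raised members, CENPN (0.60 ± 0.10) and CENPE (0.42 ± 0.11†), and 5 lowered ones, CENPU (-0.63 ± 0.10*), CENPH (-0.48 ± 0.15*†), KNTC1 (-0.43 ± 0.10*), MIS18A (-0.35 ± 0.11*†) and CENPM (-0.30 ± 0.09*†). Of 20 condensin and cohesin genes 3 were called: NCAPD3 (3.11 ± 0.12), the largest rise of all genes, STAG1 (0.53 ± 0.15†) and, lowered, CDCA5 (-0.30 ± 0.08*†). Histone genes are copied mainly in S phase as transcripts without a poly(A) tail, and 9 of 39 tested were raised and 0 lowered, with H2BC5 (1.07 ± 0.10), H2BC21 (0.72 ± 0.11), H3C4 (at least 1.18-fold higher) and H4C8 (0.59 ± 0.10) first. Members of this family have near-identical sequences, so their probes may share signal. Changes of over 1.5 times were seen in the counts of raised mitotic kinase genes (1 with median scaling or without DHT replicate 3 or vehicle replicate 2, 0 with reduced median scaling or without DHT replicate 1 or 2 or vehicle replicate 1 or 3), raised kinetochore genes (1 with reduced median scaling or without DHT replicate 3 or vehicle replicate 2), lowered kinetochore genes (0 with median scaling, 2 without DHT replicate 1, 3 without DHT replicate 3 or vehicle replicate 1, 2 or 3, 1 with reduced median scaling), raised condensin genes (1 without DHT replicate 2 or 3 or vehicle replicate 1, 4 without vehicle replicate 2) and raised kinesin genes (3 with median scaling or without DHT replicate 3, 2 without DHT replicate 2, 1 with reduced median scaling).

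**Figure D2:**
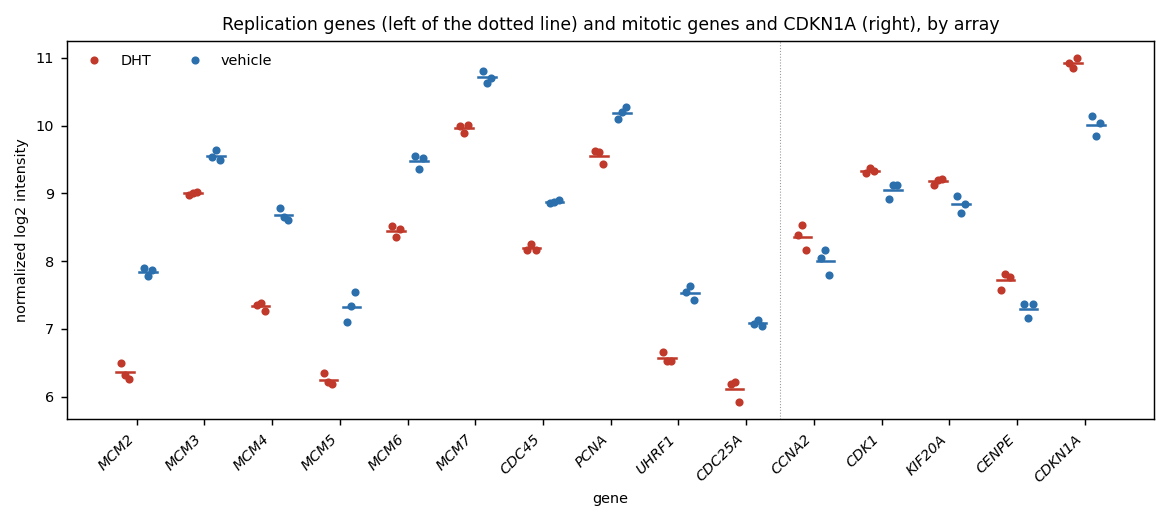
Normalized log2 intensity of 15 genes on each of the 3 DHT arrays (red) and 3 vehicle arrays (blue), with group means as bars. The 10 genes left of the dotted line were lowered and those right of it raised, and CCNA2 shows the smallest distance between groups relative to its spread.

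Supply of nucleotides and ribosomes was the other lowered block. Of 24 genes of purine and pyrimidine synthesis and salvage 15 were lowered and 1 raised, with a median change of -0.44 against 0.01 for all genes. CAD, which encodes the enzyme of the first steps of pyrimidine synthesis, lay at 5.66, 6.42 and 5.82 with DHT, against 6.73, 6.70 and 6.98 with vehicle. The groups did not overlap, and the change was -0.84 ± 0.18 (adjusted p = 0.00521). PFAS (-0.62 ± 0.15*†) and HPRT1 (-0.60 ± 0.09*) of the purine route and CTPS2 (-0.61 ± 0.08*) of the pyrimidine route followed. The raised member was IMPDH1 (0.31 ± 0.10*†, probes of opposite sign). Of 61 genes of ribosome assembly 30 were lowered (49.2%) and 0 raised. POLR1E, a subunit of RNA polymerase I, which copies ribosomal RNA genes, lay at 7.69, 7.42 and 7.51 with DHT, against 8.65, 8.85 and 8.81 with vehicle. Its groups did not overlap, and it was lowered, with a change of -1.23 ± 0.10 (adjusted p = 7.45e-06). The nucleolar chaperone gene NPM3 (-1.0 ± 0.11), NOC2L (-0.76 ± 0.25†) and NOLC1 (-0.74 ± 0.11*) were next. With median scaling 1 nucleotide and 3 ribosome assembly genes were lowered, and 9 and 15 were with reduced median scaling. The medians of both lists lay below that of all genes by 0.45 and 0.33, and by 0.37 and 0.28 with median scaling.

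Cytosolic ribosomal protein genes were lowered in 23 of 72 and raised in 0 (median change -0.17). RPL36A (-0.94 ± 0.15), RPL14 (-0.80 ± 0.09*), RPL13 (-0.77 ± 0.10*, probes of opposite sign) and RPL37 (-0.62 ± 0.14*) were among them. This family has many processed pseudogenes, and its members are among the brightest probes of the array. Under median scaling 1 was lowered, and 11 were with reduced median scaling. Mitochondrial ribosomal protein genes were called near the rate of all genes, with 11 lowered, first MRPL12 (-0.56 ± 0.11*), and MRPL41 (0.37 ± 0.10†), MRPL44 (0.31 ± 0.09*†) and MRPL33 (0.31 ± 0.10*†) raised, of 77. MYC drives ribosome and nucleotide synthesis genes in many cell types. It lay at 9.13, 9.23 and 9.21 with DHT, against 10.77, 10.56 and 10.62 with vehicle. Every DHT array was below every vehicle array, and the change was -1.46 ± 0.09 (2.75-fold lower, adjusted p = 8.58e-07). Its partner MAX (-0.66 ± 0.16*, probes of opposite sign) and the MAX-binding repressors MNT (-0.36 ± 0.09*) and MXD1 (-0.26 ± 0.08*†) were lowered as well, which made 4 of 9 tested genes of that network. The E-box CACGTG, the core of MYC binding sites, was in 28% of the promoters of lowered ribosome assembly genes and in 29.6% of those not called. Among nucleotide synthesis genes it was in 3 of 14 promoters of lowered genes (21.4%) and in 0 of 7 of genes not called. It was in 13.1% of the promoters of all lowered genes, 9.16% of those of raised genes and 9.98% of those of genes not called. Of all promoters 7.43% held it, and of those of tested genes 10.2%. Counts that moved by over 1.5 times were those of raised mitochondrial ribosomal genes (1 with median scaling or without DHT replicate 2 or 3 or vehicle replicate 2 or 3, 0 with reduced median scaling or without DHT replicate 1), lowered mitochondrial ribosomal genes (0 with median scaling, 7 without DHT replicate 2 or vehicle replicate 1, 6 with reduced median scaling) and lowered MYC network genes (1 with either scaling).

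Genes of amino acid supply held called members in both directions. Of 23 genes of the amino acid response and of serine synthesis 8 were lowered and 1 raised. STC2 (-0.79 ± 0.11*), a secreted hormone that ATF4 induces, PHGDH (-0.56 ± 0.10*), the first enzyme of serine synthesis, BCAT2 (-0.53 ± 0.09*) and PSAT1 (-0.52 ± 0.10*) were lowered, and GLUD1 (0.58 ± 0.08), glutamate dehydrogenase, was raised. Of 22 amino acid transporter genes 4 were lowered and 3 raised. SLC3A1, a subunit of a cystine carrier, lay at 5.08, 5.23 and 5.12 with DHT, against 7.28, 6.85 and 7.15 with vehicle and was lowered, with a change of -1.95 ± 0.13. Its groups did not overlap, nor did those of SLC16A10 (-1.05 ± 0.10), a carrier of aromatic amino acids. SLC6A8 (-0.64 ± 0.13*), a creatine carrier counted in this list, and SLC7A1 (-0.32 ± 0.10*†) were lowered. SLC36A1 (0.79 ± 0.14), SLC38A6 (0.66 ± 0.12) and SLC1A4 (at least 1.08-fold higher*†) were raised. The cytosolic tRNA synthetases, another target group of ATF4, held 2 raised genes, TARS1 (0.42 ± 0.12†) and MARS1 (0.35 ± 0.10*†), and 2 lowered ones, VARS1 (-0.32 ± 0.09*†) and QARS1 (-0.28 ± 0.08*†), of 18. Processing moved by over 1.5 times the counts of lowered amino acid response genes (0 with median scaling, 4 with reduced median scaling), lowered amino acid transporter genes (2 with median scaling), raised synthetase genes (1 with median scaling or without DHT replicate 2 or vehicle replicate 1 or 3, 0 with reduced median scaling or without DHT replicate 3 or vehicle replicate 2) and lowered synthetase genes (0 with either scaling or without DHT replicate 1 or 2 or vehicle replicate 2 or 3, 1 without DHT replicate 3 or vehicle replicate 1).

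The early secretory pathway was raised from signal recognition to the Golgi. Of 331 genes in 10 of its lists and the RAB family 117 were raised (35.3%) and 12 lowered, with a median change of 0.21. Proteins bound for secretion enter the ER through the SEC61 channel, and of 35 genes of signal recognition, channel and signal peptidase 15 were raised and 0 lowered. SEC11C, a catalytic subunit of signal peptidase, lay at 12.02, 12.21 and 12.17 with DHT, against 11.10, 11.03 and 11.05 with vehicle, with no overlap, and was raised by 1.07 ± 0.09 (adjusted p = 1.26e-05). SPCS3 (0.98 ± 0.13) of the same enzyme, the channel gene SEC61B (0.71 ± 0.09) and the receptor gene SRPRA (0.60 ± 0.10) followed. Of 27 ER chaperone and folding genes 14 were raised and 0 lowered. DNAJC3 lay at 6.25, 6.13 and 5.69 with DHT, against 4.98, 5.39 and 4.73 with vehicle and was raised by 0.99 ± 0.20 (adjusted p = 0.0037), detected on 1 of the 3 vehicle arrays. DNAJC10 (0.86 ± 0.09), HYOU1 (0.73 ± 0.13) and MANF (0.70 ± 0.09) came next. HSPA5, which encodes the chief ER chaperone BiP, lay at 10.44, 10.42 and 10.51 with DHT, against 10.27, 10.26 and 10.31 with vehicle. Its groups did not overlap, yet its change of 0.18 ± 0.07 was not called (adjusted p = 0.106). The counts that changed by over 1.5 times were for raised signal recognition genes (7 with reduced median scaling) and raised chaperone genes (9 with reduced median scaling).

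Promoters of ER chaperone genes carry an ER stress element, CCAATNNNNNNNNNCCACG, read by ATF6, or its second form, ATTGGNCCACG. The first was in 22 of 27305 promoters (0.0806%) and in 13 of 9207 of tested genes (0.141%). It was in 7 of 1070 of raised genes (0.654%), in 0 of 963 of lowered genes and in 6 of 7174 of genes not called (0.0836%). The second was in 15 promoters in all, in 3 of raised genes, in 0 of lowered genes and in 6 of genes not called. Within the ER chaperone list the first form was in 3 of 14 promoters of raised genes (21.4%) and in 2 of 10 of genes not called (20%), and the second in 2 of 14 (14.3%) and 0 of 10. Raised genes with the first form include CANX, CRELD2, HSP90B1 and XBP1, and those with the second HYOU1 and SDF2L1. Both forms were searched on both strands, and no match says only that these letters are not in the window. Promoters of 4 raised genes are printed to show the elements, in capitals, at chr12:103930160-103930439 (HSP90B1, plus strand), chr22:28800540-28800819 (XBP1, minus strand), chr11:119057176-119057455 (HYOU1, minus strand) and chr22:21642052-21642331 (SDF2L1, plus strand) (RefSeq, GRCh38.p14).
HSP90B1: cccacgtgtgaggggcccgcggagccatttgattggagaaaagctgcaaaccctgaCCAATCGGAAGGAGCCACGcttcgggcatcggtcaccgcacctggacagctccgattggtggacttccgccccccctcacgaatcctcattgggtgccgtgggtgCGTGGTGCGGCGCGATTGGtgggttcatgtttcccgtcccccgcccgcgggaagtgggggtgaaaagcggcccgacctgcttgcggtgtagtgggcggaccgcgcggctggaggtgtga
XBP1: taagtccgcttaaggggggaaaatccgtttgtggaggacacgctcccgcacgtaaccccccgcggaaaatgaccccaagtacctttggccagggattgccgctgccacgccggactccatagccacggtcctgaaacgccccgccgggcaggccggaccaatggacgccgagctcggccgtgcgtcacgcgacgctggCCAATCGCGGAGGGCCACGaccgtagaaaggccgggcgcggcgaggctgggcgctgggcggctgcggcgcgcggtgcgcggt
HYOU1: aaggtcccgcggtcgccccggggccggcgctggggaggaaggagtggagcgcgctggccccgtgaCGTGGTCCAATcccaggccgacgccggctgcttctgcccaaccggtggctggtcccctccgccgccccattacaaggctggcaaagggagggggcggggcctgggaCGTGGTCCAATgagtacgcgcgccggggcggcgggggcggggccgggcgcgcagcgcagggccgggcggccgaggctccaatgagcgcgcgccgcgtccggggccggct
SDF2L1: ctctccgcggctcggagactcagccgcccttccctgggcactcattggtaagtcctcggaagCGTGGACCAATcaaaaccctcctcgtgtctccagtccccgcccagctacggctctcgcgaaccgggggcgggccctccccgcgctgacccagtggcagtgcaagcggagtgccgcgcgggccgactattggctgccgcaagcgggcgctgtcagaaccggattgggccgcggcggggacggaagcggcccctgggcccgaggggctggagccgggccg

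All 4 of these genes were raised. HSP90B1, the ER form of HSP90, lay at 13.06, 12.96 and 13.07 with DHT, against 12.53, 12.53 and 12.54 with vehicle, with no overlap, and XBP1, a transcription factor of the unfolded protein response, at 11.99, 12.26 and 12.02 with DHT, against 11.66, 11.54 and 11.53 with vehicle. Their changes were 0.50 ± 0.07* and 0.51 ± 0.09, beside 0.73 ± 0.13 for HYOU1 and 0.60 ± 0.09 for SDF2L1. Of 18 genes of unfolded protein response signalling 11 were raised and 0 lowered. KDELR3 (1.19 ± 0.10, detected on 1 of 3 vehicle arrays), which returns chaperones to the ER, CREB3L4 (0.92 ± 0.18), a membrane-bound transcription factor found in prostate, CREB3L2 (0.80 ± 0.08) and the kinase gene EIF2AK3 (0.58 ± 0.12), which encodes PERK, changed most. ATF6 (0.40 ± 0.11†), whose product binds the ER stress element, and DDIT3 (0.52 ± 0.13†), which PERK signalling induces, were raised as well. Changes of over 1.5 times were seen in the counts of raised unfolded protein response genes (7 without DHT replicate 3, 3 with reduced median scaling).

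Disulfide isomerases were raised in 9 of 22 and lowered in 3. TXNDC11 (0.78 ± 0.13), AGR2 (0.70 ± 0.08), an isomerase of mucus-secreting epithelia, PDIA4 (0.63 ± 0.11) and PDIA5 (0.58 ± 0.08) were the largest rises. ERP27 lay at 5.23, 5.41 and 5.32 with DHT, against 6.79, 6.58 and 6.71 with vehicle and QSOX1 at 6.84, 6.76 and 6.45 with DHT, against 7.87, 7.59 and 7.65 with vehicle. Both were lower on every DHT array than on any vehicle array, with changes of -1.37 ± 0.10 and -1.02 ± 0.12, and QSOX2 was lowered too (-0.34 ± 0.08*†). Of 22 genes of ER-associated degradation 8 were raised, with EDEM1 (0.98 ± 0.10), which selects misfolded glycoproteins, EDEM2 (0.61 ± 0.09), SELENOS (0.55 ± 0.08, probes of opposite sign) and the ligase gene SYVN1 (0.53 ± 0.08) first, and UBE2G2 (-0.33 ± 0.11*†) was lowered. Transfer of the N-glycan had 6 raised genes of 33 and 0 lowered, led by ALG11 (0.58 ± 0.13), the ribophorin gene RPN1 (0.50 ± 0.09), STT3A (0.49 ± 0.10) and DPAGT1 (0.37 ± 0.10†). Counts that moved by over 1.5 times were those of raised degradation genes (5 with reduced median scaling) and raised N-glycan transfer genes (3 with reduced median scaling or without DHT replicate 2).

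Vesicle coats were raised in both directions of traffic. Of 32 genes of the COPII coat, which carries cargo out of the ER, 15 were raised and 0 lowered. SEC24D, a cargo adaptor, lay at 8.07, 7.93 and 8.05 with DHT, against 6.73, 7.04 and 6.96 with vehicle and was raised by 1.11 ± 0.10 (adjusted p = 1.57e-05). The groups did not overlap, and the other 3 paralogs SEC24B (0.71 ± 0.16, probes of opposite sign), SEC24C (0.62 ± 0.10) and SEC24A (0.49 ± 0.14†) were raised as well. Of 27 genes of the COPI coat and its cargo receptors 13 were raised, with KDELR3, COPG1 (0.60 ± 0.13), ARF4 (0.60 ± 0.08) and ARCN1 (0.56 ± 0.10) first, and TMED6 (-0.66 ± 0.19*†) was lowered. Golgins and other Golgi structure genes were raised in 15 of 30, among them GOLGB1 (0.73 ± 0.11), which encodes giantin, GOLGA5 (0.69 ± 0.10), GORASP1 (0.68 ± 0.13) and TMF1 (0.66 ± 0.16), and GOLIM4 (-0.36 ± 0.10*†) and GLG1 (-0.29 ± 0.09*†) were lowered. TRAPP and SNARE factors, which tether and fuse vesicles, held 3 raised genes of 41, VAMP4 (0.66 ± 0.21†, detected on 2 of 3 vehicle arrays), STX3 (0.37 ± 0.11†) and NSF (0.29 ± 0.08*†, probes of opposite sign), and 1 lowered one, TRAPPC6A (-0.36 ± 0.08*). Of 46 RAB genes 10 were raised, with RAB3B (0.66 ± 0.10), RAB4B (0.65 ± 0.10), RAB28 (0.59 ± 0.12) and RAB1B (0.56 ± 0.09) first, and 4 lowered, RAB40B (-0.63 ± 0.09*), RAB27B (-0.59 ± 0.10*, probes of opposite sign), RAB14 (-0.51 ± 0.17*†) and RAB25 (-0.42 ± 0.13*†). Processing moved by over 1.5 times the counts of raised COPII genes (8 with reduced median scaling), raised COPI genes (7 with reduced median scaling), raised Golgi genes (7 with reduced median scaling), lowered Golgi genes (0 with either scaling or without DHT replicate 1 or vehicle replicate 1 or 2, 1 without DHT replicate 2 or 3 or vehicle replicate 3), raised TRAPP and SNARE genes (1 without DHT replicate 1, 2 or 3, 0 with reduced median scaling or without vehicle replicate 1), raised RAB genes (5 with median scaling, 6 without DHT replicate 3 or vehicle replicate 1, 3 with reduced median scaling) and lowered RAB genes (0 with median scaling, 2 with reduced median scaling or without DHT replicate 2 or 3 or vehicle replicate 2).

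**Figure D3:**
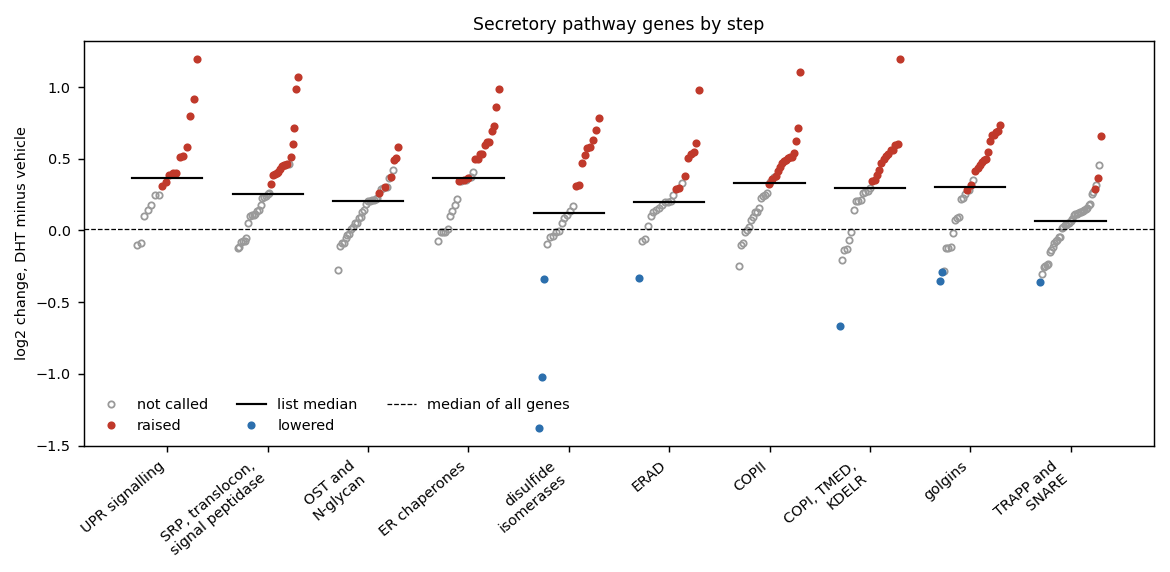
Log2 change (DHT minus vehicle) of every tested gene in 10 lists along the secretory pathway, with raised genes in red, lowered genes in blue, genes not called as open circles, list medians as bars and the median of all genes dashed. Every bar stands above the dashed line, and the lowest bar is that of the TRAPP and SNARE factors.

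Of the 331 secretory pathway genes 94 were raised with median scaling and 57 with reduced median scaling, and 2 and 4 were lowered. With 1 array left out 6 to 9 were lowered. The median change of the ER chaperones lay 0.36 above that of all genes, and 0.42 above it under median scaling.

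Sugar supply for glycoproteins was raised in 11 of 33 genes and lowered in 3. GNE, the first enzyme of sialic acid synthesis, lay at 8.55, 8.68 and 8.88 with DHT, against 7.50, 7.63 and 7.79 with vehicle, with no overlap, and was raised by 1.06 ± 0.12 (adjusted p = 6.78e-05). UAP1 (0.96 ± 0.10), which makes UDP-N-acetylglucosamine, GMPPA (0.91 ± 0.10) and GMPPB (0.71 ± 0.11) followed, and GALK1 (-0.46 ± 0.08*), GNPDA1 (-0.33 ± 0.08*) and UAP1L1 (-0.30 ± 0.10*†) were lowered. Of 19 sialyl- and fucosyltransferase genes 2 were raised, ST6GAL1 (2.10 ± 0.14) and POFUT2 (0.36 ± 0.09†), and 0 lowered. ST6GAL1, which adds the terminal sialic acid to N-glycans, lay at 8.57, 8.89 and 8.65 with DHT, against 6.36, 6.88 and 6.59 with vehicle. That was 4.28-fold higher with DHT, and no array of one group came near the other. Of 29 O-glycan enzymes 4 were raised, B4GALT1 (0.64 ± 0.12), GALNT18 (0.60 ± 0.10), GCNT3 (at least 1.06-fold higher*) and GALNT2 (0.49 ± 0.12*†, detected on 2 of 3 vehicle arrays), and B3GALT6 (-0.36 ± 0.12*†) was lowered. Of 32 proteoglycan genes 7 were lowered and 4 raised. SDC2 (-1.42 ± 0.13), a cell-surface proteoglycan, GPC6 (-1.10 ± 0.14), the heparan sulfotransferase gene HS6ST2 (-0.99 ± 0.16) and the chondroitin sulfotransferase gene CHST15 (-0.56 ± 0.16*†, detected on 1 of 3 DHT arrays) were lowered, while CSGALNACT1 (1.53 ± 0.20, detected on 1 of 3 vehicle arrays), which starts chondroitin chains, CHST3 (0.48 ± 0.10), CHPF2 (0.48 ± 0.14†) and CHSY1 (0.48 ± 0.08) were raised. The counts that changed by over 1.5 times were for raised sugar supply genes (6 with reduced median scaling), lowered sugar supply genes (0 with median scaling, 1 with reduced median scaling), raised sialyltransferase genes (1 with reduced median scaling or without DHT replicate 1 or vehicle replicate 2), raised O-glycan genes (2 with median scaling) and lowered proteoglycan genes (3 with median scaling, 4 with reduced median scaling or without DHT replicate 1 or 3).

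Zinc, which prostate epithelium stores and secretes, had 7 raised and 1 lowered of 18 transporter genes, against 6 and 0 with median scaling and 1 and 2 with reduced median scaling. SLC30A2, which loads zinc into vesicles, lay at 6.23, 6.53 and 6.68 with DHT, against 5.03, 4.76 and 4.72 with vehicle and was detected on 1 of the 3 vehicle arrays. It was raised by 1.65 ± 0.16 (adjusted p = 2.21e-05), with no overlap. SLC30A1 (0.68 ± 0.16, detected on 2 of 3 vehicle arrays), the exporter of the plasma membrane, SLC39A10 (0.58 ± 0.13) and SLC39A9 (0.47 ± 0.13†) were raised, and the importer gene SLC39A4 (-0.52 ± 0.10*) was lowered. Of 21 genes of P-type ATPases 4 were raised and 0 lowered: the calcium pump genes ATP2B4 (1.18 ± 0.17, detected on 2 of 3 vehicle arrays) and ATP2A2 (0.43 ± 0.10, probes of opposite sign), the phospholipid flippase gene ATP8B1 (0.68 ± 0.17, detected on 2 of 3 vehicle arrays) and the copper transporter gene ATP7B (0.67 ± 0.09, probes of opposite sign). Changes of over 1.5 times were seen in the counts of raised ATPase genes (2 with reduced median scaling).

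Of 296 signalling genes 53 were raised and 45 lowered, against 41 and 19 with median scaling and 32 and 30 with reduced median scaling. Of 23 genes of ERBB receptors, ligands and feedback inhibitors 8 were raised and 1 lowered. ERRFI1, which binds and inhibits the EGF receptor, lay at 10.13, 10.41 and 10.36 with DHT, against 8.46, 8.56 and 8.55 with vehicle and was raised by 1.77 ± 0.09 (adjusted p = 3.98e-07). No arrays overlapped, as held for LRIG1 (1.37 ± 0.09), which removes ERBB receptors from the surface, SOCS2 (1.12 ± 0.12) and SPRY4 (0.76 ± 0.09), inhibitors of cytokine and RAS signalling. TGFA, a ligand of the EGF receptor, was the lowered member, at 4.69, 5.32 and 4.95 with DHT, against 5.94, 5.93 and 6.16 with vehicle. The change was -1.03 ± 0.16, and the groups did not overlap. Of 27 TGF-beta and BMP genes 9 were raised and 1 lowered. NBL1, a secreted BMP antagonist, lay at 10.56, 10.52 and 10.39 with DHT, against 8.56, 8.51 and 8.50 with vehicle and was raised 3.9-fold. GDF15 (1.25 ± 0.09), a secreted stress factor, the receptor gene BMPR1B (1.25 ± 0.10) and GDF11 (0.58 ± 0.09) followed, and the ligand gene BMP7 (-1.16 ± 0.14) was lowered. Counts that moved by over 1.5 times were those of raised ERBB genes (5 without DHT replicate 1, 2 or 3 or vehicle replicate 1 or 2) and raised TGF-beta and BMP genes (4 with reduced median scaling).

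WNT, NOTCH and insulin signalling held called genes in both directions. Of 33 WNT genes 6 were raised and 5 lowered, and 5 of the raised ones encode Frizzled receptors. These are FZD5 (1.02 ± 0.10), FZD9 (0.99 ± 0.19), FZD8 (0.91 ± 0.15), FZD1 (0.61 ± 0.12) and FZD4 (0.59 ± 0.09), while FZD3 (-0.80 ± 0.11) was lowered. The ligand gene WNT2 lay at 6.96, 7.01 and 7.0 with DHT, against 8.66, 8.88 and 8.75 with vehicle. Every DHT array was far below the vehicle arrays (3.42-fold lower, adjusted p = 2.97e-07), and the antagonist gene SFRP1 (-0.64 ± 0.18*†), the transcription factor gene LEF1 (-0.45 ± 0.08*) and the coreceptor gene LRP5 (-0.43 ± 0.12*†) were lowered too. Of 25 NOTCH genes 6 were lowered and 3 raised, led by the ligand gene JAG2 (-1.05 ± 0.10), with DLL3 (-0.57 ± 0.08*), MAML3 (-0.53 ± 0.15*†) and DTX3 (-0.52 ± 0.15*†), and on the raised side DTX2 (0.38 ± 0.11†), NOTCH2 (0.35 ± 0.08*†) and APH1B (0.29 ± 0.08*†). Of 35 genes of insulin, IGF and PI3-kinase signalling 8 were raised and 7 lowered. IGF1R, the receptor of IGF-1, lay at 6.13, 6.33 and 6.70 with DHT, against 5.03, 5.63 and 5.31 with vehicle and was raised by 1.07 ± 0.18. Its groups did not overlap. The kinase genes SGK1 (1.32 ± 0.17) and SGK3 (1.10 ± 0.12) and the phosphatase gene INPP4B (0.91 ± 0.16, detected on 2 of 3 vehicle arrays) were raised, and the IGF-binding protein genes IGFBP2 (-1.12 ± 0.07) and IGFBP3 (-1.08 ± 0.08), DEPTOR (-0.97 ± 0.18) and SESN1 (-0.79 ± 0.09*) lowered. Processing moved by over 1.5 times the counts of lowered WNT genes (2 with median scaling, 3 without DHT replicate 3), raised NOTCH genes (1 with median scaling or without DHT replicate 1 or 3 or vehicle replicate 3, 0 with reduced median scaling), lowered NOTCH genes (1 with median scaling, 3 without DHT replicate 3 or vehicle replicate 3, 2 with reduced median scaling), raised insulin and IGF genes (5 without vehicle replicate 3, 4 with reduced median scaling) and lowered insulin and IGF genes (3 with median scaling).

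Enzymes of steroid and lipid mediators were split in a similar way. Of 17 steroid and glucuronidation enzymes 4 were raised and 4 lowered. UGT2B enzymes attach glucuronic acid to androgens, and their genes are close in sequence, so probes may share signal. UGT2B28 was detected on no vehicle array and was at least 1.44-fold higher, and UGT2B11 (0.70 ± 0.18†) and UGT2B4, whose tested probe was above background on no vehicle array, were raised with it, whereas UGT2B17 (-0.73 ± 0.11*) was lowered. AKR1C3, which makes testosterone from androstenedione, lay at 9.20, 9.05 and 9.28 with DHT, against 10.12, 10.02 and 10.20 with vehicle. It was lowered, with a change of -0.94 ± 0.09 without overlap, as were AKR1C4 (-0.73 ± 0.15*) and HSD17B6 (-0.66 ± 0.09*), and HSD17B11 was raised (0.59 ± 0.10). Of 18 retinoid genes 4 were raised and 4 lowered. RDH10, which oxidizes retinol to retinal, lay at 9.88, 10.08 and 9.87 with DHT, against 7.94, 8.16 and 7.76 with vehicle, and ALDH1A1, which oxidizes retinal to retinoic acid, at 11.66, 11.83 and 11.53 with DHT, against 10.02, 10.01 and 9.94 with vehicle. In both the groups were far apart, with changes of 1.99 ± 0.11 and 1.69 ± 0.11. The retinal reductase gene DHRS3 (0.76 ± 0.10) and ALDH1A3 (0.68 ± 0.08) were raised, and FABP5 (-1.88 ± 0.12), a carrier of fatty acids and retinoic acid, CRABP2 (-0.58 ± 0.17*†), the receptor gene RARA (-0.48 ± 0.12*) and DHRS4 (-0.37 ± 0.10*†) lowered. The counts that changed by over 1.5 times were for raised steroid enzyme genes (2 with reduced median scaling), lowered steroid enzyme genes (1 with median scaling) and lowered retinoid genes (1 with median scaling, 2 with reduced median scaling or without vehicle replicate 1).

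Of 20 prostaglandin genes 4 were raised and 6 lowered, and both ends of the route were among them. PLA2G2A, a secreted phospholipase that frees arachidonic acid, lay at 5.87, 5.66 and 5.55 with DHT, against 7.90, 7.61 and 7.64 with vehicle. HPGD, which inactivates prostaglandins, lay at 10.26, 10.22 and 10.11 with DHT, against 8.22, 8.16 and 8.39 with vehicle. The first was 4.07-fold lower and the second 3.84-fold higher with DHT, with no overlap in either. The exporter gene ABCC4 (1.05 ± 0.09), PLAAT3 (0.39 ± 0.09*) and CBR3 (0.27 ± 0.08*†) were raised, and the receptor genes PTGFR (-1.02 ± 0.21) and PTGER4 (-0.41 ± 0.10*) and the reductase gene PTGR3 (-0.41 ± 0.11*†) lowered. Of 19 calmodulin kinase genes 5 were lowered and 1 raised, with CAMKV (-1.79 ± 0.11), CAMK2N1 (-0.94 ± 0.13), an inhibitor of CAMK2, CAMK2D (-0.71 ± 0.10*), CAMK2G (-0.65 ± 0.12*) and CAMK1D (-0.41 ± 0.10*†) on one side and the phosphatase gene PPP3CC (0.41 ± 0.14*†) on the other. Changes of over 1.5 times were seen in the counts of raised prostaglandin genes (2 with either scaling), lowered prostaglandin genes (2 with either scaling) and lowered calmodulin kinase genes (2 with median scaling).

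**Figure D4:**
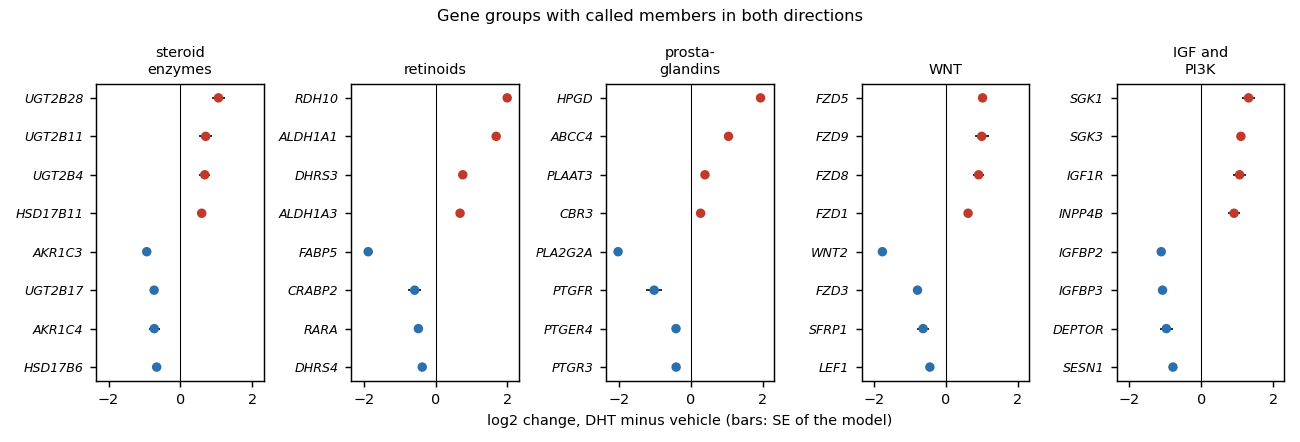
Log2 change (DHT minus vehicle) with the SE of the model for the 4 largest rises (red) and 4 largest falls (blue) of 5 gene groups. Each group has called members on both sides of 0, from -2.03 (PLA2G2A) to 1.99 (RDH10).

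Junction genes were called in both directions, and cytoskeleton genes more often as raised. Of 22 claudin and tight junction genes 8 were raised and 2 lowered. CLDN8 lay at 10.02, 10.10 and 10.29 with DHT, against 8.87, 9.03 and 8.88 with vehicle and was raised by 1.21 ± 0.11, with no overlap, followed by MARVELD3 (0.86 ± 0.12, detected on 2 of 3 vehicle arrays), MARVELD2 (0.74 ± 0.21†, detected on 2 of 3 vehicle arrays), which seals junctions between 3 cells, and the polarity gene CRB3 (0.65 ± 0.12). JAM3 (-1.05 ± 0.14) and CLDN15 (-0.35 ± 0.12*†) were lowered. Of 24 desmosome, cadherin and nectin genes 3 were raised, CDH7 (at least 1.26-fold higher), NECTIN2 (0.55 ± 0.12) and DSC2 (0.28 ± 0.08*†), and 4 lowered, CDH26 (-0.98 ± 0.12), the desmoglein gene DSG2 (-0.52 ± 0.09*), JUP (-0.46 ± 0.09*), which encodes plakoglobin, and EVPL (-0.39 ± 0.11*†). Of 5 tested keratin genes KRT19 (1.08 ± 0.10), KRT18 (0.47 ± 0.14†, probes of opposite sign) and KRT10 (0.38 ± 0.12†) were raised, whereas KRT8 (0.24 ± 0.11) and KRT80 (0.14 ± 0.10) were not called. Of 65 actin, myosin and actin regulator genes 18 were raised and 7 lowered. The capping protein gene CAPZB (0.73 ± 0.08) and the myosin genes MYO1G (0.69 ± 0.21†, detected on 2 of 3 vehicle arrays), MYO1D (0.66 ± 0.11) and, among actins, ACTA2 (0.65 ± 0.10) were raised, and the talin gene TLN2 (-1.19 ± 0.12), MYOF (-0.51 ± 0.09*), TPM4 (-0.50 ± 0.11*) and DIAPH3 (-0.38 ± 0.12*†, probes of opposite sign) lowered. Of 43 tubulin and microtubule genes 11 were raised and 4 lowered. TUBA3E was detected on no vehicle array and was at least 2.2-fold higher, and MAPRE3 (0.93 ± 0.15), MAP2 (0.91 ± 0.12) and MAP9 (0.89 ± 0.19) followed, while TUBB2B (-0.49 ± 0.14*†), STMN3 (-0.48 ± 0.09*), TUBB (-0.46 ± 0.09*) and TBCB (-0.31 ± 0.08*†) were lowered. Counts that moved by over 1.5 times were those of raised tight junction genes (3 with reduced median scaling), lowered tight junction genes (1 with either scaling or without DHT replicate 1, 2 or 3 or vehicle replicate 1 or 2), lowered desmosome and cadherin genes (1 with median scaling), raised keratin genes (1 without DHT replicate 2 or 3 or vehicle replicate 2), raised actin and myosin genes (11 with median scaling, 7 with reduced median scaling), lowered actin and myosin genes (1 with median scaling, 2 with reduced median scaling), raised tubulin genes (7 with median scaling or without DHT replicate 2, 6 with reduced median scaling) and lowered tubulin genes (0 with median scaling, 1 with reduced median scaling).

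Genes of glucose uptake and glycolysis were called in both directions, and respiratory chain genes were mostly not called. Of 33 genes of glucose uptake and glycolysis 9 were raised and 6 lowered. The glucose transporter gene SLC2A3 lay at 8.21, 8.37 and 8.26 with DHT, against 6.34, 6.15 and 6.06 with vehicle and the fructose transporter gene SLC2A5 at 6.86, 6.80 and 6.93 with DHT, against 5.63, 5.72 and 5.37 with vehicle. Neither had overlapping groups, and the rises were 4.27-fold and 2.45-fold. SLC2A10 (0.53 ± 0.10) and SLC2A11 (at least 1.02-fold higher*) of the same family were raised too, and SLC2A1, SLC2A6, SLC2A8 and SLC2A12 were not called. Of the enzymes, LDHB (-0.72 ± 0.09*), PFKM (-0.64 ± 0.09*) and ENO3 (-0.54 ± 0.17*†) were lowered, and ENO2, detected on no DHT array, was at least 1.52-fold lower. Of 18 fatty acid synthesis and elongation genes 8 were raised and 0 lowered, with 4 elongases among them, ELOVL7 (0.87 ± 0.24†), ELOVL2 (0.75 ± 0.16), ELOVL5 (0.70 ± 0.15) and, named after its value was seen, ELOVL4 (0.26 ± 0.08*†), beside the synthase gene FASN (0.75 ± 0.08). Of 17 cholesterol synthesis genes 7 were raised and 1 lowered. These were IDI1 (0.74 ± 0.10), NSDHL (0.64 ± 0.09), SC5D (0.58 ± 0.10) and MSMO1 (0.57 ± 0.09) first, and TM7SF2 (-0.67 ± 0.09*) was the lowered one. Tested respiratory chain genes were 34 of complex I, 13 of complexes II and III, 12 of complex IV and 19 of ATP synthase. They held 4 called genes, all lowered: NDUFB4 (-1.03 ± 0.12), NDUFV1 (-0.28 ± 0.09*†), ATP5MC1 (-0.33 ± 0.10*†) and ATP5F1D (-0.32 ± 0.09*†). With either scaling 1 complex I gene and 0 ATP synthase genes were lowered. With 1 array left out, 1 to 2 and 0 to 2 were. Processing moved by over 1.5 times the counts of raised glycolysis genes (4 with either scaling, 5 without DHT replicate 2 or vehicle replicate 2), lowered glycolysis genes (1 with median scaling, 3 with reduced median scaling or without vehicle replicate 1) and raised fatty acid synthesis genes (5 without vehicle replicate 1, 4 with reduced median scaling).

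Transcription factors had few families with a clear direction. Of 489 tested, 52 were raised and 35 lowered, and of 342 ZNF genes among them 27 and 20. Of the 489, 38 were raised and 7 lowered with median scaling, and 22 and 19 with reduced median scaling. With 1 array left out 33 to 45 of them were raised. Of 13 KLF and SP factors 3 were raised and 0 lowered, KLF4 (0.81 ± 0.10), KLF6 (0.60 ± 0.11) and KLF2 (0.56 ± 0.10). Of 10 ID, HES and HEY factors 4 were raised, HES1 (0.93 ± 0.21, detected on 2 of 3 vehicle arrays), a target of NOTCH, ID1 (0.56 ± 0.10), HES4 (0.51 ± 0.09) and ID3 (0.40 ± 0.09), and BHLHE41 (at least 1.22-fold lower*) was lowered. Of 16 ETS factors SPDEF (0.97 ± 0.09), ERG (0.88 ± 0.10), ELF1 (0.51 ± 0.10) and ETV6 (0.47 ± 0.13†) were raised, and ETS2 (-0.86 ± 0.17) and ELF5 (-0.57 ± 0.12*) lowered. SOX9, a factor of prostate development, lay at 8.27, 8.56 and 8.59 with DHT, against 7.20, 7.19 and 7.31 with vehicle and was raised by 1.24 ± 0.10, with no overlap, and SOX18 (-0.58 ± 0.14*, detected on 1 of 3 DHT arrays) was the other called member of 7 SOX genes. The proteasome list stood near all genes, with 20.9% of its 43 genes called. The raised ones were 6 in number, PSME4 (0.41 ± 0.11†), PSMA6 (0.38 ± 0.09*†), PSMD1 (0.35 ± 0.10*†) and PSMC4 (0.33 ± 0.08*†, probes of opposite sign) first, and the lowered ones were PSMG4 (-0.74 ± 0.14*), PSMG1 (-0.49 ± 0.09*) and PSMB10 (-0.45 ± 0.12*†). The counts that changed by over 1.5 times were for raised ZNF genes (17 with median scaling or without vehicle replicate 3, 14 without DHT replicate 2, 8 with reduced median scaling), lowered ZNF genes (4 with median scaling, 13 without DHT replicate 3, 10 with reduced median scaling), raised ETS genes (2 with reduced median scaling), lowered ETS genes (1 with median scaling), raised proteasome genes (1 with median scaling or without DHT replicate 1, 2 without DHT replicate 3, 0 with reduced median scaling) and lowered proteasome genes (0 with median scaling, 1 with reduced median scaling).

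The 25 largest rises and the 25 largest falls were set against the change that dexamethasone gave in cells treated with enzalutamide, a comparison that shares no array with DHT against vehicle. The 2 differ in the receptor ligand, in the dose and in the presence of the antagonist. Over all genes the DHT change and the dexamethasone change differed in 788 (6.9%). Dexamethasone raised 204 genes (1.79%) and lowered 196 (1.72%). Of the 25 largest rises 5 were raised by dexamethasone and 1 lowered, and of the 25 largest falls 0 were raised and 11 lowered. The DHT change differed from the dexamethasone change in 22 of the rises and 22 of the falls, which is a description only, since these genes were chosen for the size of their DHT change. HPGD moved in opposite directions, by 1.94 ± 0.09 with DHT and by -0.95 with dexamethasone (adjusted p of the difference = 5.79e-07). FKBP5, a co-chaperone of steroid receptors, was raised by both, by 2.39 ± 0.10 and 1.36, as was EAF2, a partner of elongation factor ELL, by 1.97 ± 0.11 and 1.25. For TGM2, a transglutaminase (1.65 ± 0.16 and 0.84), and WIPI1 (1.49 ± 0.19 and 0.85) both changes were called and the difference was not. REG4, a secreted lectin, lay at 7.28, 7.07 and 7.14 with DHT, against 10.30, 10.54 and 10.58 with vehicle, and its DHT change of -3.31 ± 0.10 stood beside one of -0.50 with dexamethasone. SCUBE2 (-1.69 ± 0.11) and DDC, at least 2.19-fold lower with DHT, had dexamethasone changes of -1.18 and -1.39, and the differences were not called.

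**Figure D5:**
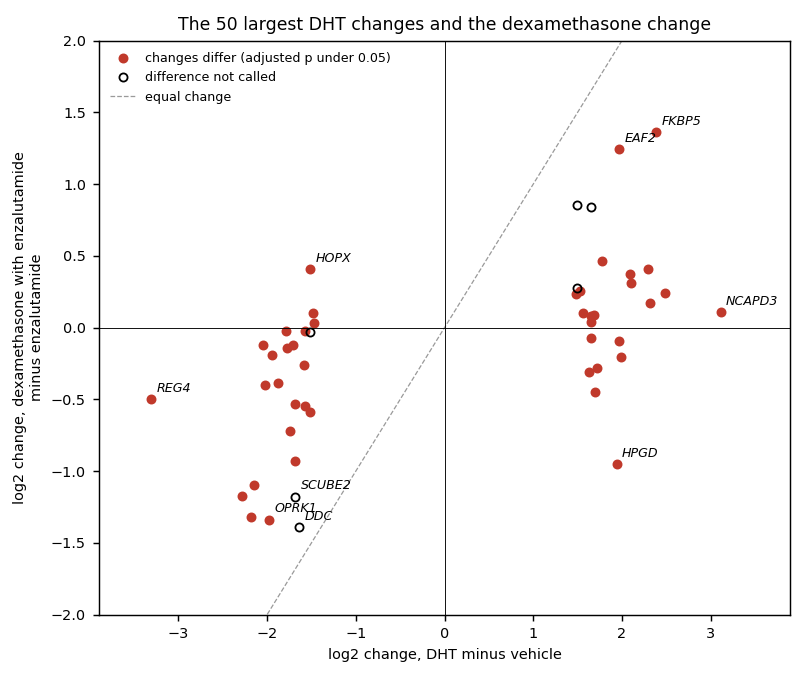
Log2 change of the 25 largest rises and 25 largest falls with DHT (horizontal axis) against the log2 change with dexamethasone in enzalutamide-treated cells (vertical axis), filled where the changes differed. NCAPD3 (3.11) and REG4 (-3.31) lie farthest out along the DHT axis, and HPGD lies in the quadrant of opposite signs.

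Gene groups were set against dexamethasone in the same way, though groups described here for their DHT change are likely to hold more differences. Of the 70 replication genes 24 had a DHT change below the dexamethasone change and 0 above it (34.3%, beside 6.9% of all genes), and 7 were raised by dexamethasone. With median scaling 10 of these 70 differed, and 175 of all genes. CDC45 was lowered by DHT and raised by dexamethasone (-0.68 ± 0.08* and 0.72, adjusted p of the difference = 2.22e-05), as were GINS2 (-0.87 ± 0.14 and 0.78), UHRF1 (-0.96 ± 0.10 and 0.64) and MCM10 (-1.06 ± 0.12 and 0.53). All 6 helicase genes differed. In ribosome assembly 23 of 61 differed, with the DHT change lower in each, and 1 of 61 with median scaling and 6 with reduced median scaling. Of 27 ER chaperone genes 9 were raised by dexamethasone, and 2 had changes that differed (7.41%, near the share of all genes). One was HSPA5, raised by 0.93 with dexamethasone (adjusted p = 5.17e-05) and by more than with DHT (adjusted p of the difference = 0.00119). The other was DNAJC10, where the DHT change was the higher (0.86 ± 0.09 and 0.21). With median scaling 0 of the 27 ER chaperone genes differed, and 1 did with reduced median scaling. SDF2L1 (0.60 ± 0.09 and 1.02), MANF (0.70 ± 0.09 and 0.87) and CRELD2 (0.62 ± 0.09 and 0.90) were raised in both comparisons, with differences that were not called. Of 32 COPII genes 3 were raised by dexamethasone and 0 had changes that differed.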

How the data were processed

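The authors labelled RNA of 12 VCaP cultures as biotinylated cRNA for Illumina arrays, 1 per culture, per the labels' protocols. The deposited intensity of a probe was exported from GenomeStudio, per the submitters' processing notes (version not stated), with no normalization between arrays. The deposited detection p-value of each probe comes from the same table, with the numbers of beads, which were used only to describe the arrays. The authors' processed intensities, from their values background-subtracted and quantile-normalized, were used as an alternative. The arrays were background-corrected and quantile-normalized in the manner of neqc (limma 3.58.1, R 4.3.3) with an offset of 16, and 20265 of 47322 probes were kept. Of these, 5296 had no single gene symbol in the platform annotation and were tested apart. All 4 groups were fitted in one linear model (lmFit, then eBayes, with 8 residual and a prior of 3.71 degrees of freedom), two-sided, with Benjamini-Hochberg adjustment. The smallest p that exact permutation of 3 and 3 arrays allows is 0.1. A gene that no array of 1 group detected is given as "at least N-fold": its mean in the brighter group is divided by the dimmer group's mean, after raising each dim array to its lowest detected signal where the gene was below it. A summed marker level adds the normalized intensities on the linear scale.

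Arrays of the same replicate number deviated together (correlations of 0.155, 0.148 and 0.194 over genes, beside -0.119 to -0.022 for other pairs), so the numbers were taken to pair the cultures. The main model held no term for this pairing. A fit with the replicate number as a block was run as an alternative and kept 2375 of the 2476 calls. The members of all lists were chosen with earlier results of these data known. Named genes are the 25 largest rises and 25 largest falls, up to 4 called members of a list in each direction, all tested members of small lists the text describes in full, and members of called counts of 5 or fewer. The 25 largest rises and 25 largest falls were taken from called genes whose groups did not overlap, so this trait was fixed by the choice. ELOVL4 and the 4 glucose transporter genes not called were chosen after their values were seen. The fits were checked on simulated data. Probes of near-identical genes were not tested for cross-hybridization. The second form of the ER stress element and the E-box were added to the promoter search later.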

Additional observations from a re-analysis of the deposited data

Results flagged for a closer look

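Of the kept probes, 5296 had no single gene symbol and entered none of the comparisons above. DHT changed 586 of them (11.1%), 238 raised and 348 lowered, beside 17.4% of all 20265 kept probes. These probes are listed because they hold a signal outside the genes described. What they measure was not tested.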

How the results depend on the processing

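In every fit that tested them again, all of the 2476 called genes kept their sign, except 2 within the second technical set and 9 with the mean of all kept probes. Scaling to a common median gave 1169 changed genes, 950 raised and 219 lowered, 1663 changed probes and 175 genes with a DHT change that differed from the dexamethasone change. Without vehicle replicate 3 as well (reduced median scaling above), an alternative added after the data were seen, it gave 1178 changed, 557 raised and 621 lowered genes and 318 differences. With no background correction 1206 genes differed from the dexamethasone change. The 6 DHT and vehicle arrays alone gave 1663 changed genes, 846 raised and 817 lowered, and 2314 changed probes. A technical division of the arrays, the sign of the first principal component of probes that no array detected, was used as a block and within sets. Vehicle replicate 3 had by far the highest score on this component (519056, next 73957). The first set held replicates 1 and 2 of DHT and vehicle, but only replicate 1 of both enzalutamide groups. The second held 1 DHT and 1 vehicle array, both replicate 3. Its DHT counts, and the differences within either set, are therefore not replicated checks. Within the first set 767 genes changed, 385 raised and 382 lowered, with 885 probes and 1 difference, and within the second set 228, 119 and 109, with 385 probes and 15 differences. A minimum of 1.5-fold left 890 genes, 454 raised and 436 lowered, and 1308 probes. With 1 array left out, changed genes numbered 1871 to 2098, raised genes 942 to 1058, lowered genes 925 to 1047, changed probes 2610 to 2957 and differences 549 to 691. The replicate block gave 1330 raised and 1252 lowered genes and 796 differences, and it ended the calls of 5 of 343 named genes (CENPM, IMPDH1, MRPL33, RAB14 and UBE2G2) and added that of GINS3. Median scaling ended 130 of these 343 calls, the 6 arrays alone 73, and leaving out 1 array 48 to 60. The mean of all kept probes ended 17, those of TMF1 and ATP7B among them, and the fit with no filter on dim probes 18. The asterisk and the dagger do not cover losses in these last fits. DIAPH3, called as lowered by its brightest probe, changed by 0.0189 with the mean of its probes (adjusted p = 0.929). Depth limits genes near background: of the 25 largest rises 1 and of the 25 largest falls 2 are bounds.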

Other observations

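TSC22D1, a leucine zipper protein gene with several transcripts, was the 1 gene whose kept probes were called in both directions with DHT. One probe had a change of -0.43 ± 0.11 (adjusted p = 0.0186 over the kept probes) and another one of 0.83 ± 0.19 (adjusted p = 0.00981). The other 2 kept probes changed by 0.12 and 0.14 and were not called, and the brightest of the probes, which stands for the gene above, is one of these 2. Which transcripts the probes read was not analysed here.

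The androgen response motif AGAACA was in 4 of the 25 promoters of the largest rises that were matched. Of the promoters of all raised genes 6.82% held it, beside 7.37% for lowered genes and 9.76% for genes not called. It was in 9.17% of the promoters of tested genes and in 14.9% of all promoters. The palindrome of this motif, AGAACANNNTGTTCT, searched on both strands, was in 1 of 27305 promoters and in 0 of those of tested genes. The sterol response element ATCACCCCAC was in 0 promoters of raised genes and the amino acid response element TTGCATCA in 0.748% of them, against 0.727% for lowered genes.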
